A study of Mus musculus with 6 samples.

Results

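The mRNA transcripts of heat shock chaperones of the cytosol and of the mitochondrial matrix were followed in liver of marathon (DUhTP) mice and of control (DUC) mice. The 10 genes listed were Hspb1, Hspa1a, Hspa1b, Hspa8, Hsph1, Dnajb1, Hsp90aa1, Hsp90ab1, Hspd1 and Hspe1, and every probe set whose only gene symbol in the array annotation is one of them was taken. This gave 20 probe sets of 9 genes out of 22626 probe sets tested, while Hsp90ab1 was not analysed here. DUhTP is a non-inbred line under long-term selection for high treadmill performance, and DUC is its unselected control from the same founder stock, a cross of the inbred lines XVII/Bln, C57BL/Bln, AB/Bln and CBA/Bln with the outbred lines CF1, CFW, Han:NMRI and NMRI orig. Each line was measured with 3 Affymetrix Mouse Genome 430A 2.0 arrays of liver RNA from untrained males aged 70 days, so that the 2 groups differed by line only as far as the labels state. The labels describe each sample as a mouse and the study's methods describe pools of mice, which was not settled here, and p-values therefore measure only the spread between these arrays.

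Heat shock proteins are chaperones that hold or refold unfolded proteins. In the cytosol, small heat shock proteins such as Hspb1 bind unfolding proteins without ATP, Hsp70 proteins (Hspa1a, Hspa1b, Hspa8) bind and release short stretches of chain with the help of J-domain proteins (Dnajb1) and nucleotide exchange factors (Hsph1), and Hsp90 proteins complete the folding of kinases and steroid receptors. In the mitochondrial matrix, imported proteins fold in the chamber formed by Hsp60 (Hspd1) and its lid Hsp10 (Hspe1). Many of these genes are switched on by heat shock factor 1, which binds promoter elements built of inverted nGAAn units, while Hspa8 is made at a high rate in unstressed cells, liver included.

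Abundance was given as a PLIER intensity on a linear scale in arbitrary units, in which probe sets cannot be set against each other. The median intensity of the arrays was 53.1 to 56.6 in DUhTP and 56.3 to 57 in DUC. DUhTP replicate 2 had the lowest array weight (0.558), and arrays of a line correlated at 0.959 or more among DUhTP and at 0.974 or more among DUC (log2 intensities). The hepatocyte markers, 11 measured genes led by Alb, Apoa1 and Apoa2, summed to 117049 to 120215 in DUhTP and 124663 to 127653 in DUC. By gene, on the brightest probe set, 7 of the 11 had a log2 fold change under 0, with a median of -0.03. Without overlap, 4 lay below DUC and 1 above it, beside 15.8% and 13.6% of all probe sets. Of 16 measured markers of exocrine pancreas, 13 were below DUC without overlap (15.8% of all probe sets were). The summed intensity of the 16 was 5108, 1138 and 3281 in DUhTP replicates 1, 2 and 3 and 6190, 12118 and 9217 in DUC replicates 1, 2 and 3. The log2 ratio of the 3′ over the 5′ probe set of Actb, a sign of RNA quality, was 0.61 to 0.86 in DUhTP and 0.79 to 1.18 in DUC. In whole liver, fewer cells of a type and less RNA per cell cannot be told apart.

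Of the chaperones, only Hspb1 passed the test between the lines, and it was higher in DUhTP mice. Most of the others read lower in DUhTP mice: 15 of the 20 probe sets had a log2 fold change under 0, against 51.9% of all probe sets, and the median over the 20 was -0.28, against -0.02 over all. Probe sets of a gene share their target, so the 15 are not independent. They include -0.03 on 1427126_at of Hspa1b, -0.08 on 1416756_at of Dnajb1 and -0.06 on 1422579_at of Hspe1. These 3 turned direction in fits without 1 array. The median over the brightest set of each chaperone was -0.33, against 0.00 over all genes. With limma's moderated test and Benjamini-Hochberg adjustment over all 22626 probe sets, 1 of the 20 was called higher at an adjusted p under 0.05 and 0 lower, beside 1.36% and 1.05% of all probe sets (2.41% in either direction). At an unadjusted p under 0.05 there were 7 of 20 (21.1% of all). The 3 DUhTP arrays lay above all 3 DUC arrays for 2 probe sets and below them for 7, against 13.6% and 15.8% of all probe sets (29.4% in either direction). When 16 was added to every intensity before the log, which damps dim probe sets, 2 probe sets were called higher and 3 lower (3.92% and 4.7% of all, 8.62% together). Limma-trend called 2 higher and 5 lower (4.71% and 5.67% of all, 10.4% together), and without the dimmest 33.3% of probe sets 2 were higher and 3 lower (5.87% and 6.4% of those tested, 12.3% together). Requiring a fold over 2 besides left 0 of the 20.

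**Figure D1:**
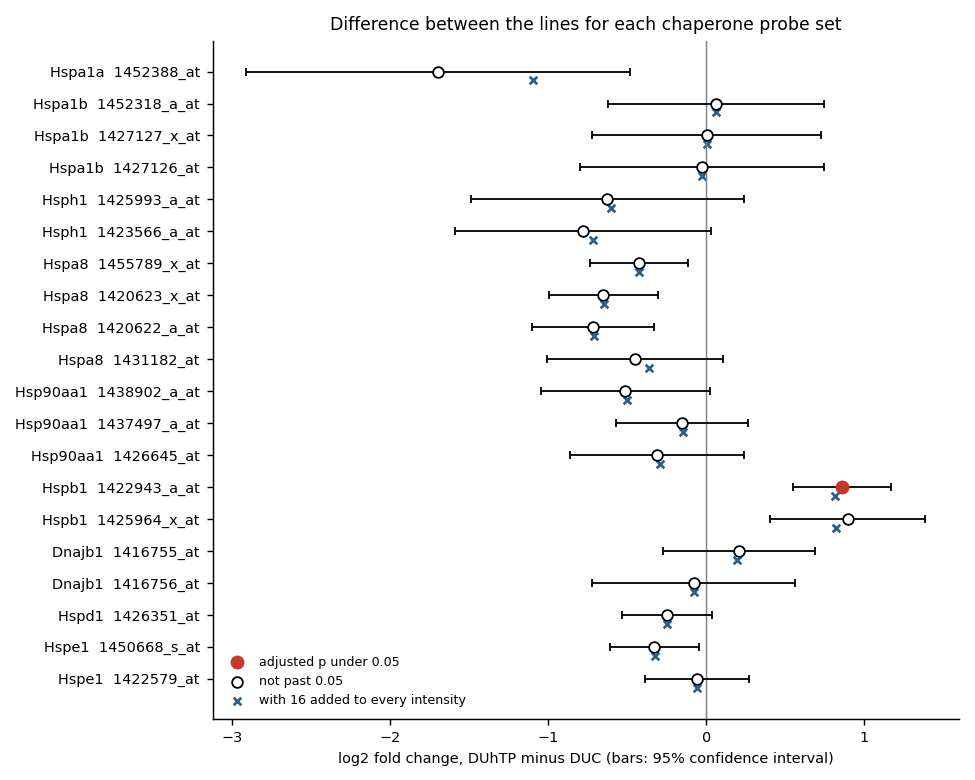
Difference between the lines for the 20 chaperone probe sets, as log2 fold change of DUhTP minus DUC on the x axis, with 95% confidence intervals from limma; crosses give the estimate with 16 added to every intensity. The filled point, Hspb1 on 1422943_a_at at 0.86, is the only one past an adjusted p of 0.05, and 15 of the 20 points lie left of 0.

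Hspb1 encodes a small heat shock protein known in mouse as Hsp25. Its probe set 1422943_a_at read 348, 403 and 391 in DUhTP and 188, 223 and 218 in DUC. Every DUhTP array was thus above every DUC array, with means of 381 ± 28.9 and 209.8 ± 19.2 (SD, n = 3 arrays each). Hspb1 was 1.82-fold higher in DUhTP (95% confidence interval 1.47 to 2.25, log2 fold change 0.86, SE 0.13, limma adjusted p = 0.0342). The call rested on all 6 arrays: leaving out DUhTP replicate 1, 2 or 3 gave an adjusted p of 0.0843, 0.0857 or 0.0959, and leaving out DUC replicate 1, 2 or 3 gave 0.114, 0.127 or 0.135. With 16 added it was 0.003 with all arrays and 0.00596 to 0.0184 without any 1 of them, at a log2 fold change of 0.81.

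The second Hspb1 probe set, 1425964_x_at, whose name marks probes that can match other transcripts, read 223, 282 and 251 in DUhTP and 107, 169 and 136 in DUC. The groups did not overlap here either, and replicate 2 was the highest array of each line on both probe sets. The log2 fold change was 0.90 (SE 0.20), but the adjusted p of 0.0822 missed the threshold and passed with 16 added (0.0127), which held in 5 of the 6 fits that left out an array (not without DUC replicate 3, 0.0594). Of the other small heat shock proteins, 5 were measured and 0 were called. On the brightest probe set of each gene, 2 of the 5 had a log2 fold change under 0, with a median of 0.21. Hspb8, which had the brightest sets, had -0.20 on 1417013_at (adjusted p = 0.495), -0.14 on 1456434_x_at (0.702) and -0.11 on 1417014_at (0.854). Cryab, the lens and muscle alpha-B-crystallin, disagreed between probe sets, with log2 fold changes of 1.05 and 1.08 on its dim sets 1416455_a_at and 1434369_a_at (adjusted p = 0.148 and 0.149) and -0.10 on its brightest, 1435837_at. Hspb3 had 0.67 (adjusted p = 0.284) and Hspb7 -1.63 on its dimmest set 1421289_at and 0.21 on its brightest.

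Hspa8, the constitutive Hsp70 (Hsc70), read lower in DUhTP mice on all 4 of its probe sets, without overlap on 3 of them. Of these 3, 1420623_x_at and 1455789_x_at have names that mark probes that can match other transcripts. On 1420623_x_at the DUhTP arrays read 3220.1, 3785 and 3249, against 4850.1, 6116 and 5165 in DUC. On 1420622_a_at they read 1499, 1893 and 1629, against 2362, 3127 and 2768 in DUC. The lowest DUC array thus stood above the highest DUhTP array on both. The means were 3418 ± 318 in DUhTP and 5377 ± 659 in DUC on 1420623_x_at (SD, n = 3 arrays each), a 1.57-fold lower intensity (95% confidence interval 1.24 to 1.99, log2 fold change -0.65, adjusted p = 0.0764). On 1420622_a_at it was 1.64-fold lower (1.26 to 2.15, log2 fold change -0.72, adjusted p = 0.0809).

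Neither Hspa8 value passed the threshold as deposited. With 16 added the adjusted p was 0.0142 and 0.0139, and these calls held in 4 of the 6 fits that left out an array, but not without DUC replicate 2 (0.0702 and 0.0698) or DUC replicate 3 (0.0547 and 0.065). As deposited, the log2 fold changes of Hspa8 were -0.73 and -0.81 without DUhTP replicate 2 (adjusted p = 0.108 for each) and -0.55 and -0.62 without DUC replicate 2 (0.214 and 0.227). Hspa8 on 1455789_x_at read 3507, 3753 and 3991 in DUhTP and 4456, 5429 and 5249.7 in DUC, a log2 fold change of -0.42 (adjusted p = 0.144, and 0.058 with 16 added). The dim set 1431182_at read 56.3, 45.2 and 60.9 in DUhTP and 97.6, 58.7 and 69.2 in DUC, where DUhTP replicate 3 exceeded DUC replicate 2 (log2 fold change -0.45, adjusted p = 0.322).

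The inducible Hsp70 copies Hspa1a and Hspa1b, neighbours on chromosome 17, gave different readings. Hspa1a on 1452388_at read 9.07, 32.5 and 21.7 in DUhTP and 45.9, 79.4 and 59.6 in DUC. The groups did not overlap, and all DUhTP values and that of DUC replicate 1 were under the medians of their arrays. Hspa1a averaged 21.1 ± 11.7 in DUhTP and 61.6 ± 16.8 in DUC (SD, n = 3 arrays each), a log2 fold change of -1.70 with an SE of 0.49 (adjusted p = 0.136). This was the lowest of the 20, a 3.24-fold lower intensity with a 95% confidence interval of 1.40 to 7.51. With 16 added the log2 fold change was -1.09 (adjusted p = 0.0198), and 4 of the 6 fits without an array kept the call, while it was lost without DUC replicate 2 (0.0884) or 3 (0.08). As deposited, the log2 fold change of Hspa1a without any 1 array ran between -1.18 without DUhTP replicate 1 (adjusted p = 0.157) and -2.10 without DUhTP replicate 2 (0.117), with the highest adjusted p without DUC replicate 2 (0.321).

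Hspa1b had 3 probe sets, and on all 3 the lines overlapped fully. The values of 1452318_a_at were 1438, 2667 and 2144 in DUhTP and 1508, 2292 and 2087 in DUC. Those of 1427127_x_at were 949, 1832 and 1405 in DUhTP and 1038, 1649 and 1417 in DUC, and 1427126_at ran alike, with 571, 1119.8 and 900.1 in DUhTP and 629, 1071 and 903 in DUC. In each line replicate 1 was the lowest and replicate 2 the highest array on all 3, by a factor of 1.85 to 1.96 in DUhTP and 1.52 to 1.70 in DUC. The log2 fold changes were 0.06, 0.00 and -0.03 (adjusted p = 0.924, 0.997 and 0.974), with 95% confidence intervals of the DUhTP over DUC ratio of 0.65 to 1.68, 0.61 to 1.66 and 0.57 to 1.68. These intervals include a fold of 1.5 in either direction, so equal abundance was not shown. The arrays cannot tell how far probes of Hspa1a and Hspa1b also bind the transcript of the other copy, and both readings are uncertain in this respect.

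The promoters of the 2 copies are shown because they are nearly the same sequence, while the probe sets of the 2 genes read differently. They are RefSeq sequence of GRCm38.p6, 130 to 81 bases before the start site and printed in the direction of transcription, with capitals for a pair of inverted heat shock element units (GAANNTTC, where N is any base).
Hspa1a, chr17:34972237-34972286, minus strand: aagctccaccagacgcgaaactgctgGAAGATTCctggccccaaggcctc
Hspa1b, chr17:34959319-34959368, minus strand: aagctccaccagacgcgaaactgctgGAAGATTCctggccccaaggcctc
All 50 of these bases were identical, and 247 of the 250 bases before the start sites were (98.8%). In both genes the match began 104 bases before the start site.

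Hsph1, an Hsp110 that exchanges the nucleotide of Hsp70, read lower in DUhTP mice than in DUC mice on average, with overlap. Its probe set 1425993_a_at read 249.8, 416 and 327 in DUhTP and 319.7, 738 and 529 in DUC (log2 fold change -0.63, SE 0.35, adjusted p = 0.366). On 1423566_a_at the values were 113, 197 and 125 in DUhTP and 193, 364 and 203 in DUC (-0.78, SE 0.33, adjusted p = 0.2495). Replicate 2 was the highest array of each line on both probe sets. DUhTP replicate 2 reached into the DUC range on both, and DUhTP replicate 3 did so on 1425993_a_at. Without DUhTP replicate 2, the array with the lowest weight, the log2 fold changes of Hsph1 were -0.81 and -1.03 (adjusted p = 0.343 and 0.196), and without DUC replicate 2 they were -0.34 and -0.49 (0.652 and 0.465).

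Dnajb1, the Hsp40 that delivers unfolded proteins to Hsp70, did not pass the test either. The values of 1416755_at were 249, 400.4 and 311 in DUhTP and 257, 298 and 264 in DUC (log2 fold change 0.21, SE 0.20, adjusted p = 0.599), and those of 1416756_at were 223, 351 and 214 in DUhTP and 227, 349 and 249.5 in DUC (-0.08, SE 0.26, adjusted p = 0.894). The lines overlapped on both, and again replicate 2 was the highest array of each line. The 95% confidence intervals of the DUhTP over DUC ratio were 0.83 to 1.61 and 0.61 to 1.48.

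Hsp90aa1, the inducible Hsp90, read lower in DUhTP mice without overlap on 1 of its 3 probe sets. On 1438902_a_at the arrays read 886, 519 and 744 in DUhTP and 907, 1033 and 1058 in DUC. Here DUhTP replicate 2 was the lowest array, not the highest, and DUhTP replicate 1 came close to DUC replicate 1. The log2 fold change was -0.51 (SE 0.22, adjusted p = 0.252), and without DUhTP replicate 2 it was -0.30 (adjusted p = 0.351). The other Hsp90aa1 sets overlapped, with 426, 336 and 457 in DUhTP and 458, 504 and 389 in DUC on 1437497_a_at (log2 fold change -0.15, adjusted p = 0.658) and 279, 167 and 254 in DUhTP and 300.2, 304 and 248 in DUC on 1426645_at (-0.31, adjusted p = 0.481).

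The mitochondrial pair Hspd1 and Hspe1 had small differences. Hspd1 on 1426351_at read 2630.3, 2493 and 2810.0 in DUhTP and 3368, 3161 and 2901 in DUC, a 1.19-fold lower intensity in DUhTP (95% confidence interval of DUC over DUhTP 0.98 to 1.44, log2 fold change -0.25, adjusted p = 0.288). Hspe1 on 1450668_s_at read 2382, 2055 and 2307 in DUhTP and 2654, 2888 and 2919 in DUC, a 1.26-fold lower intensity (1.03 to 1.53, log2 fold change -0.33, adjusted p = 0.184). All DUhTP arrays were below all DUC arrays on both of these probe sets. The second Hspe1 set, 1422579_at, overlapped, with 964, 956 and 1162 in DUhTP and 1041, 1168 and 994 in DUC (log2 fold change -0.06, adjusted p = 0.846). Replicate 2 was not the highest DUhTP array on any of these 3 probe sets.

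The values by array showed a second pattern, within the lines. Replicate 2 was the highest DUhTP array on 12 of the 20 probe sets and the highest DUC array on 16, and it was so in both lines on 12, against 28.9%, 36.8% and 10.7% of all probe sets. These 12 were all the sets of Hspa1a, Hspa1b, Hsph1, Hspb1 and Dnajb1 and 2 of Hspa8, so that the cytosolic genes outside Hsp90aa1 made up all of them. Probe sets of a gene share their target and are not independent. Averaged over the brightest probe set of each of the 9 genes, the log2 intensity relative to each gene's mean was -0.38, 0.00 and -0.08 in DUhTP replicates 1, 2 and 3 and -0.06, 0.33 and 0.18 in DUC replicates 1, 2 and 3. The dim set of Hspa1a had the widest range in this mean. Its values were -1.88, -0.04 and -0.62 in DUhTP replicates 1, 2 and 3 and 0.46, 1.25 and 0.84 in DUC replicates 1, 2 and 3. A mean without Hspa1a was not computed. The pancreas markers ran lowest in DUhTP replicate 2 and highest in DUC replicate 2. Their order over the arrays was that of the 9-gene mean in DUC but not in DUhTP. The part of the pancreas markers in the differences between the lines was not tested. Nothing in the labels ties arrays of the same number in the 2 lines to each other.

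**Figure D2:**
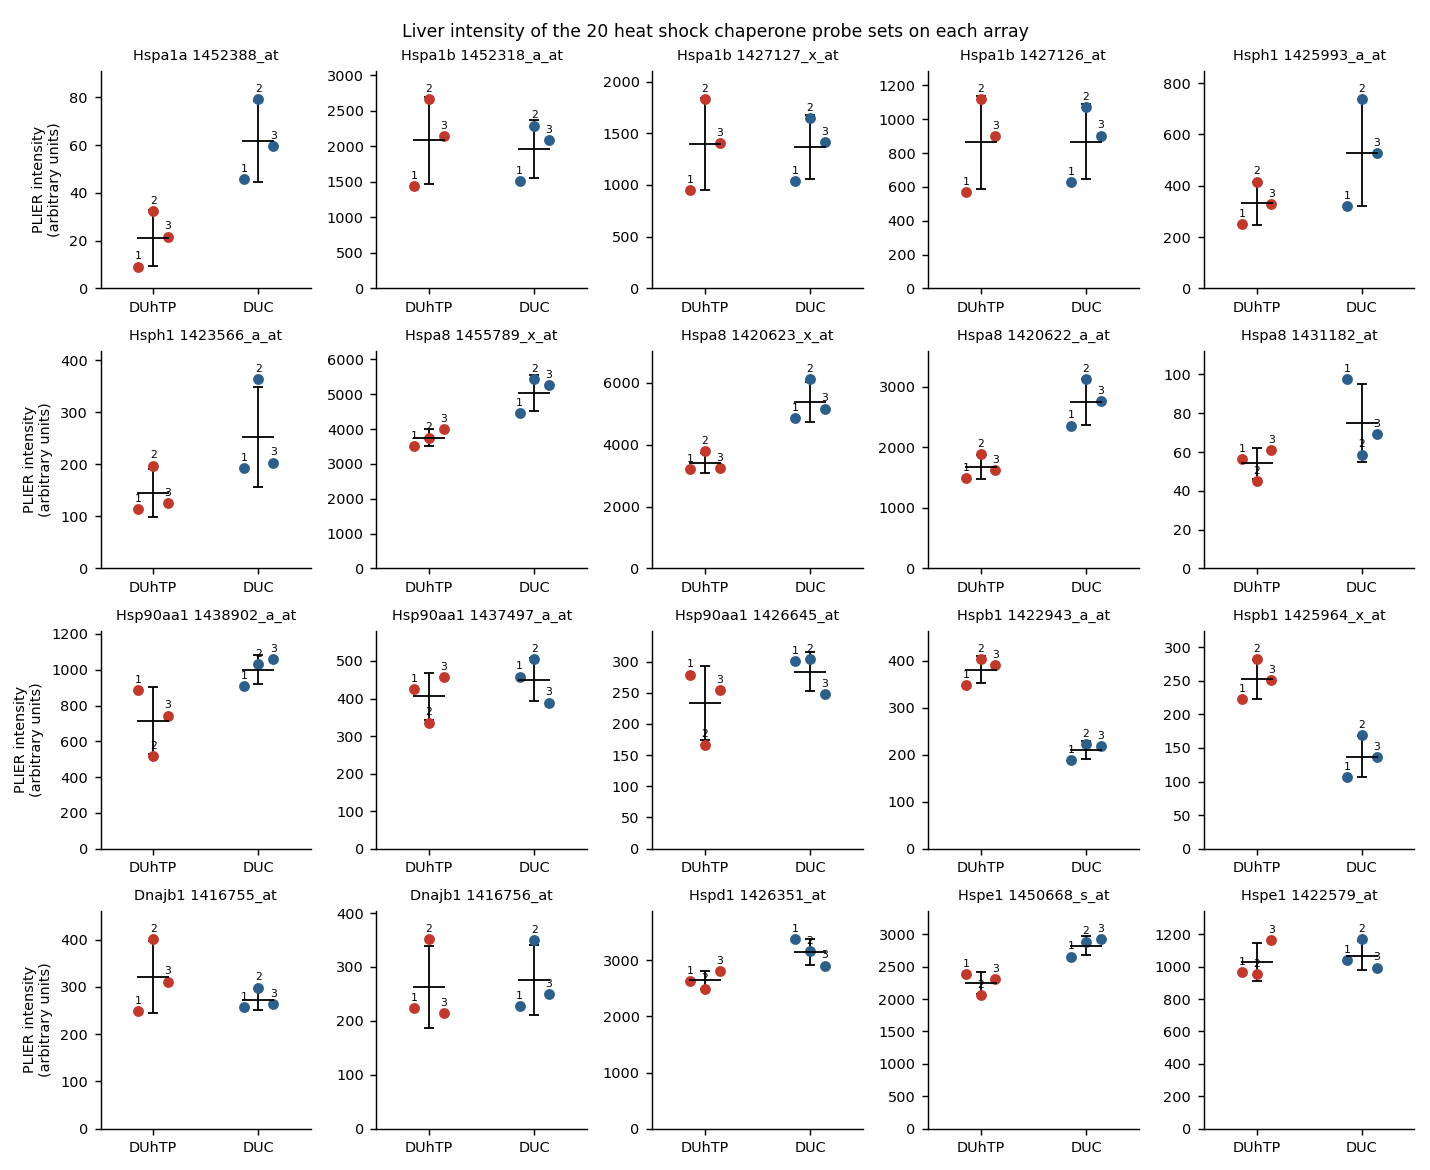
PLIER intensity (y axis, arbitrary units, from 0) of each chaperone probe set on the 3 DUhTP and 3 DUC arrays, numbered by replicate, with bars for the mean and its SD. The groups stand apart in both sets of Hspb1 (DUhTP above) and in 7 sets with DUhTP below, while those of Hspa1b cover the same range.

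**Figure D3:**
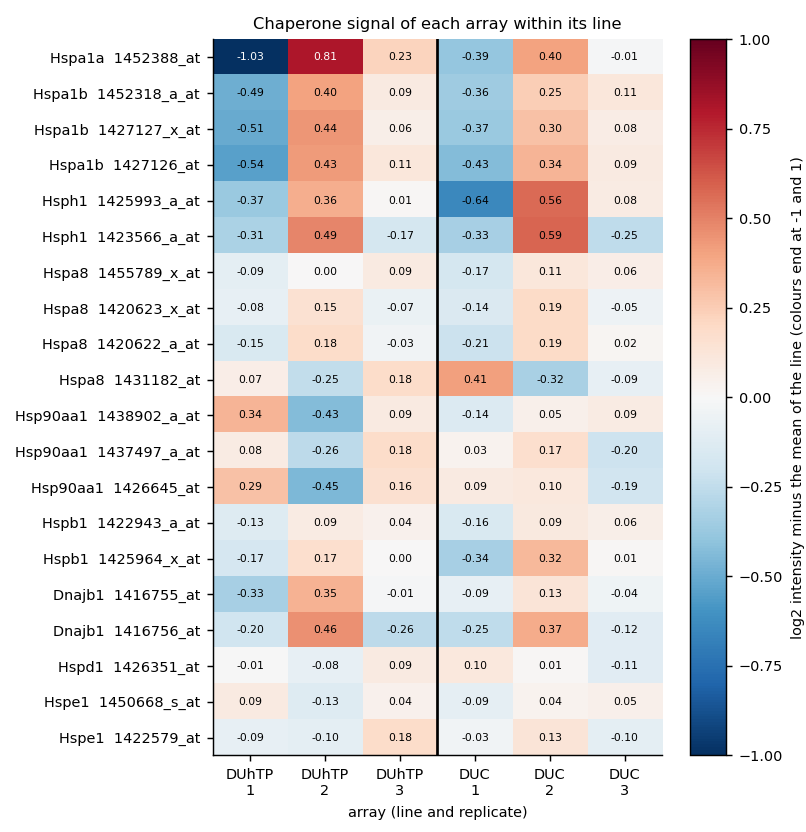
Log2 intensity of each array minus the mean of its line, by probe set (rows) and array (columns). Replicate 2 is the highest array of both lines on 12 of the 20 rows, and DUhTP replicate 2 is the lowest of its line on all 3 rows of Hsp90aa1.

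Spread within a line was uneven among the chaperones. The SE of the log2 fold change was highest on Hspa1a (0.49). It was 0.28 to 0.31 on the Hspa1b sets and 0.33 to 0.35 on those of Hsph1, against a median of 0.18 over all probe sets. It was 0.12 on Hspd1 and 0.11 on 1450668_s_at of Hspe1. A difference of a given size was thus harder to detect for Hspa1a, Hspa1b and Hsph1 than for the mitochondrial pair.

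Promoter sequence was looked up to see which chaperone genes carry heat shock element units near the start site. RefSeq windows of GRCm38.p6 from 250 bases before to 50 after a start site covered 7 of the genes in 10 windows. They were searched for 2 inverted units, GAANNTTC or TTCNNGAA, each of which is its own reverse complement and so is found on both strands at once, and which may overlap. A match was found in 7 of the 10 windows and for 6 of the 7 genes, against 15.1% of the 32851 windows of the table, and Dnajb1 had no match in its 2 windows. The 15.1% is a share of windows and not of genes. The windows are not independent: those of Hsph1 hold the same matches, Hspd1 and Hspe1 share a run, and Hspa1a and Hspa1b are near copies. The genes were listed as heat shock chaperones beforehand, so these counts only describe them. Matches of 3 alternating units (GAANNTTC followed by NNGAA, or TTCNNGAA followed by NNTTC) were found for Hspe1, Hspd1 and Hsph1, against 0.603% of all windows. A match is a description of these letters and not a site of binding.

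The stretches below show the gene that passed the test, Hspb1, and those with other arrangements of units, with the matched units in capitals. The Hspb1 stretch runs from 130 to 81 bases before the start site and holds matches that begin 117 and 97 bases before it.
Hspb1, chr5:135887789-135887838, plus strand: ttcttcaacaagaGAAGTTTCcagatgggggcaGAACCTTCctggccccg
Hspe1, chr1:55088053-55088082, plus strand: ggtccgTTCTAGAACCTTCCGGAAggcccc
Hsph1, chr5:149636352-149636381, minus strand: tgggtagaatctTTCTCGAAggctcgagaa
The Hsph1 stretch holds only the match that begins 33 bases before the start site of its first window. Its match of 3 units begins 37 bases after that start site and is not printed. In Hspe1 the 3 matches overlap in 1 run that starts 89 bases before its start site. Hspd1 is transcribed the other way from the opposite strand, and the same run, read on that strand, starts 144 bases before the start site of its second window. The 6 genes with a match were Hspb1, Hspa1a, Hspa1b, Hsph1, Hspd1 and Hspe1. A link between the matches and the differences between the lines was not tested.

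**Figure D4:**
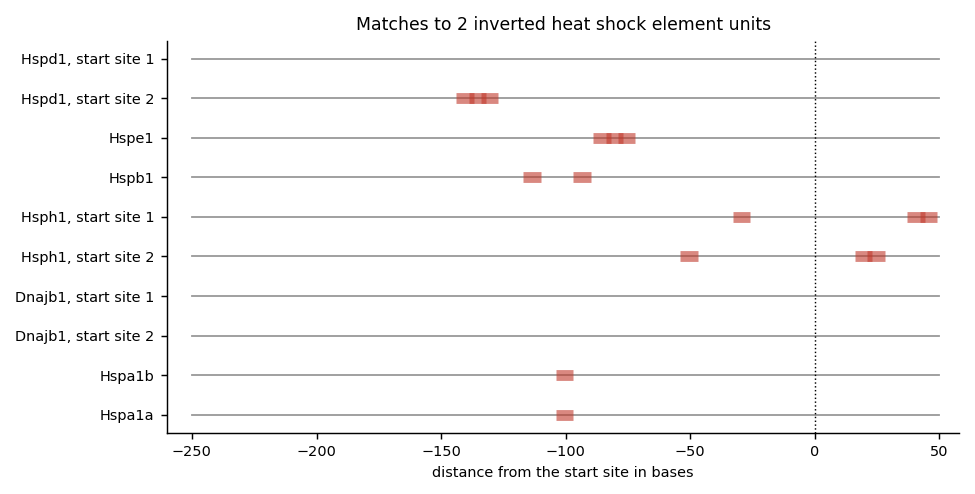
Positions of 2 inverted heat shock element units (bars of 8 bases) in promoter windows of the chaperone genes, as distance in bases from the annotated start site (dotted line at 0, x axis). Of the 10 windows, 7 hold a match, and both windows of Dnajb1 and the first of Hspd1 hold none.

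Around the chaperones, 8 further lists were described, with 89 measured genes. A gene counted as called when at least 1 of its probe sets passed. Of these, 1 gene was higher and 2 were lower in DUhTP mice, beside 3.32% of the 12393 genes on the array that were called in either direction. Over all genes the median log2 fold change of the brightest probe set was 0.00 and 49.8% were under 0. Over the 9 chaperones this median was -0.33.

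Among 21 measured cochaperones and nucleotide exchange factors of the cytosol, 1 was called lower and 0 higher, and the median was -0.12 with 15 genes under 0. The call was Fkbp5, an immunophilin of Hsp90 and steroid receptor complexes. Fkbp5 on 1416125_at read 264, 277 and 291 in DUhTP and 645, 1021 and 818 in DUC (log2 fold change -1.55, SE 0.19, adjusted p = 0.024), and its second set agreed in direction (-1.52, adjusted p = 0.0356). Every DUhTP array was below every DUC array on this set. The Fkbp5 call was kept without DUC replicate 1 (adjusted p = 0.0481) and was lost when DUhTP replicate 1, 2 or 3 (0.0813, 0.0693 and 0.0765) or DUC replicate 2 or 3 (0.0845 and 0.116) was left out, while with 16 added it held without any 1 array. Hspa4, an Hsp110 exchange factor (-0.63 on 1416146_at, adjusted p = 0.0531), and the J-domain protein Dnaja2 (-0.75 on 1417183_at, adjusted p = 0.0543) came next. The other sets of Hspa4 disagreed, with 0.13 on 1416147_at and 0.07 on 1435194_at (adjusted p = 0.824 and 0.872). Dnaja2 had -0.22 on 1417182_at (adjusted p = 0.320). With 16 added, 5 genes of this list were called lower and 0 higher, beside 6.0% and 5.31% of all genes.

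In the mitochondrial list, 11 measured genes gave 0 calls (median -0.03). Hspa9, the Hsp70 of the matrix, had -0.41 on its brightest probe set (adjusted p = 0.149) and -0.43 on 1418503_at (0.0936), while Bcs1l, which assembles respiratory complex III, had 0.72 (0.0563), and Dnaja3, a J-domain protein of the matrix, had -0.41 (0.225). The cytosolic chaperonin and prefoldin list had 12 measured genes, 0 calls and a median of -0.17. Its smallest p belonged to the chaperonin subunit Cct6a (-0.81, adjusted p = 0.0542), followed by the chaperonin subunit Cct2 (-0.39, 0.138) and the prefoldin subunit Pfdn5 (0.31, 0.204 on 1460637_s_at). Of 3 measured heat shock factors and regulators 0 were called. Hsbp1, which binds heat shock factor 1, had 0.44 on 1423906_at (adjusted p = 0.105), Hsf2 had -0.47 (0.343) and Hsf4 had -0.05 (0.938).

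The chaperones of the endoplasmic reticulum had 1 call higher and 0 lower among 17 measured genes and a median of 0.26. Pdia6, a protein disulfide isomerase, read 1395, 1488 and 1493 in DUhTP and 721, 879.7 and 679 in DUC (log2 fold change 0.95, SE 0.14, adjusted p = 0.0329). The lines did not overlap. The call was lost without any 1 array (adjusted p 0.085 to 0.135) and kept without each of them when 16 was added. Whether this list differed from the cytosolic ones was not tested.

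Genes that cells induce early under stress, outside the chaperones, were counted beside them. Of 19 measured immediate early and stress-inducible genes, 1 was lower and 0 were higher, with a median of -0.27. Gadd45b, a stress-induced regulator of growth arrest, read 99.8, 76.2 and 93.6 in DUhTP and 403, 408 and 366 in DUC (log2 fold change -2.13, SE 0.14, adjusted p = 0.00708). The lines stood apart on this gene, and among the fits without an array it missed the threshold only without DUC replicate 2 (0.0565). Gadd45g (-1.49, adjusted p = 0.0643) and the dim set of Klf6 (1418280_at, -1.31, 0.0506) stood next, and 4 genes of the list were called lower with 16 added, where 6.0% of all genes were. Fos had 0.30 (adjusted p = 0.787) and Egr1 -0.15 (0.752). Cirbp, an RNA-binding protein that rises in the cold, read 106, 60.03 and 85.5 in DUhTP and 257, 127 and 163 in DUC (-1.10, adjusted p = 0.144).

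**Figure D5:**
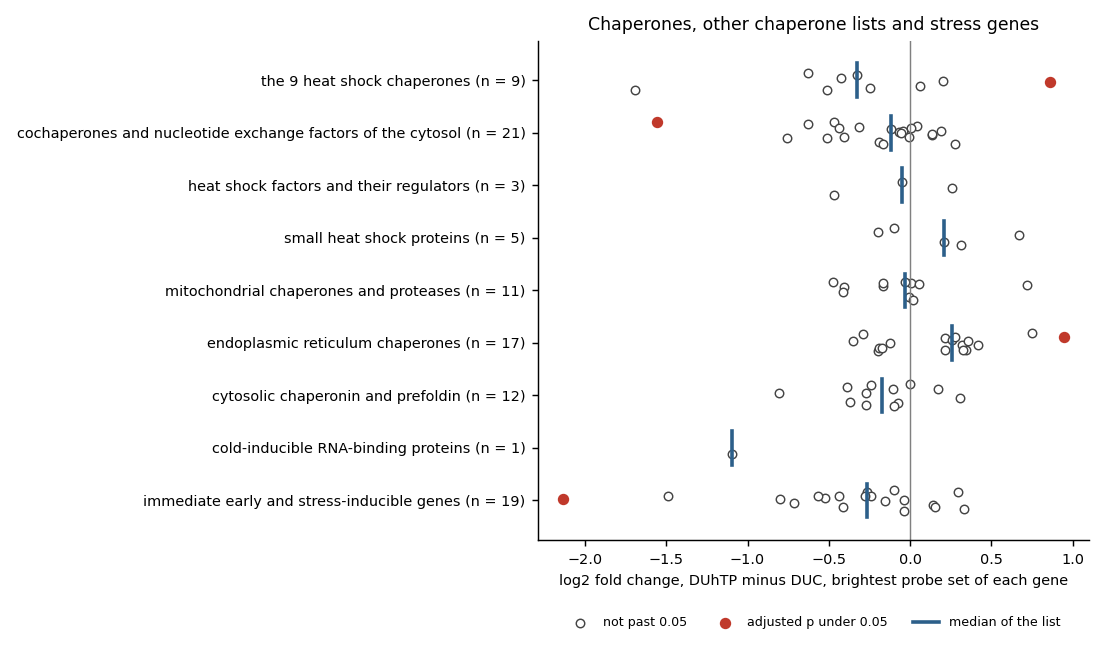
Log2 fold change (x axis, DUhTP minus DUC) of the brightest probe set of each gene for the 9 heat shock chaperones and 8 further lists, with the median of each list as a bar and filled points for an adjusted p under 0.05. The medians were -0.33 for the chaperones, -0.12 for cytosolic cochaperones and 0.26 for chaperones of the endoplasmic reticulum, and 4 genes are filled.

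Of 65 measured marker genes of cell types, 3 were called higher and 1 lower in DUhTP mice, beside 1.92% and 1.4% of all genes. With 16 added 9 were called higher and 13 lower, beside 5.31% and 6.0% of all genes, and 10 of the 13 were pancreas markers. The 11 Kupffer cell and macrophage markers, brightest in Cd5l, Csf1r and C1qa, summed to 4870 to 6069 in DUhTP and 3356 to 4466 in DUC, with Clec4f called higher (log2 fold change 1.13, adjusted p = 0.032). The 11 endothelial and stellate cell markers, brightest in Stab2, Reln and Acta2, summed to 2366 to 2593 in DUhTP and 1977 to 2053 in DUC, with Col3a1 called higher (0.93, 0.0434), and the 3 erythroid markers (Alas2, Slc4a1 and Hba-a1) to 1283 to 1657 in DUhTP and 761 to 846 in DUC, with Alas2 called higher (0.88, 0.0499). By gene, on the brightest probe set, the erythroid median log2 fold change was 0.19, and 1 of the 3 genes lay under 0. The medians were 0.55 for the Kupffer cell list and 0.15 for the endothelial list, each with 2 of 11 genes under 0. Among the hepatocyte markers Tat was called lower (-0.88, 0.037). Of the 16 pancreas markers, the brightest of which were Cela1, Prss2 and Cela2a, 0 were called as deposited (Prss2 had -2.27, adjusted p = 0.193). Lymphocyte markers (8 measured, brightest in Cd8a, Ms4a1 and Cd4) and cholangiocyte markers (5 measured, brightest in Sox9, Krt19 and Krt7) gave 0 calls, also with 16 added. The part of these cell types in the values of Hspb1, Hspa8 and Hspa1a was not tested.

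Genes with the profile most like the chaperones were sought by the root mean square difference of log2 intensity over the 6 arrays from the mean profile of the 9 genes, among 7068 genes brighter than the median probe set. In that mean profile the dim set of Hspa1a had the widest range. The nearest were Igfbp3, which binds insulin-like growth factors (0.0495), Dnmbp (0.0608), Mprip (0.0649), the RNA polymerase subunit Polr1c (0.0694) and Ptcd2 (0.0736). Igfbp3 read 73.2, 86.6 and 91.1 in DUhTP and 88.5, 114 and 104 in DUC. None of the 5 passed the test between the lines, with adjusted p from 0.242 for Mprip to 0.458 for Ptcd2.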

How the data were processed

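Mouse liver RNA was measured on 6 Affymetrix arrays (Mouse Genome 430A 2.0), 3 for DUhTP and 3 for DUC. Per the labels and the study's methods, the authors used GCOS 1.1.1 for global scaling, then Array Assist, and PLIER to summarize the probes of a set. The deposited values are thus intensity values on a linear scale. The PLIER version and any added constant are not given in the sources used here. Global scaling sets changes relative to the bulk of transcripts, and a constant damps differences of dim probe sets.

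Of all probe sets 64 controls were left out and 22626 were tested. Symbols came from the array annotation: 20380 probe sets carry 1 symbol, 691 several and 1555 none. Intensities were logged to base 2 without a constant and compared in limma 3.58.1 (R 4.3.3, lmFit and eBayes, 2-sided), with Benjamini-Hochberg adjustment over all tested probe sets. The fit was tested on simulated data. The number of arrays limits the precision, and 0.1 is the smallest 2-sided p of an exact permutation test at 3 arrays against 3. Marker and pathway lists were written by hand from textbook knowledge, and a gene counted as called if any of its probe sets with 1 symbol passed. Named were all chaperone probe sets, called members or the 3 smallest p of each pathway list, called members of the marker lists and their 3 brightest, and the 5 nearest profiles. Hspb8, Hspa4, Dnaja2, Gadd45g, Klf6, Fos and Egr1 lie outside this rule and were added with their values known. The chaperones and lists were chosen with earlier results of these data known. Promoter windows were RefSeq sequence of GRCm38.p6. Alternatives were limma-trend, quantile normalization, 16 added to every intensity, array weights, a filter on the dimmest 33.3% of probe sets, the replicate number as a block, the brightest probe set alone, leaving out probe sets ending in _x_at or _s_at, a fold over 2, and each array left out, the last also with 16 added, which was chosen after seeing the data. The qRT-PCR of the study was not analysed here.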

Additional observations from a re-analysis of the deposited data

How the results depend on the processing

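As deposited, 1 chaperone probe set was called higher and 0 lower. The counts were 2 and 3 with 16 added, 2 and 3 without the dimmest 33.3% of probe sets, 2 and 5 with limma-trend, 1 and 0 with quantile normalization, array weights, the brightest probe set alone or without sets ending in _x_at or _s_at, 0 and 0 at a fold over 2, 0 and 0 with the replicate block, and 0 higher and 0 lower without any 1 array. Among pathway genes 1 was higher and 2 lower. These became 5 and 12 with 16 added, 4 and 11 without the dimmest 33.3%, 6 and 13 with limma-trend, 2 and 4 with array weights, 1 and 6 with quantile normalization, 0 and 0 with the block, and 0 higher and 0 to 2 lower without any 1 array. Among markers 3 were higher and 1 lower, against 9 and 13 with 16 added, 9 and 6 without the dimmest 33.3%, 10 and 14 with limma-trend, 4 and 1 with array weights, 3 and 1 with quantile normalization, 0 and 0 with the block, and 0 and 0 without any 1 array. Over the whole array 546 probe sets were called, against 1951 with 16 added, 1851 without the dimmest 33.3%, 2350 with limma-trend, 690 with array weights, 684 with quantile normalization, 0 with the block, and 1 (without DUC replicate 2) to 122 without any 1 array. Causes were not tested, except that fits without an array hold fewer samples.

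Of 360 repeats of single chaperone values, 294 kept direction and side of the threshold, 33 passed it newly, 7 lost it (all Hspb1 on 1422943_a_at, with the block at an adjusted p of 0.129 and without each array) and 26 turned direction, all where the log2 fold change was at most 0.08 in size. With array weights Hspa1b turned to -0.10 on 1452318_a_at and -0.17 on 1427127_x_at. Without 1 array the range was -0.14 to 0.31 on 1452318_a_at, -0.22 to 0.26 on 1427127_x_at and -0.24 to 0.24 on 1427126_at of Hspa1b, -0.31 to 0.10 on 1416756_at of Dnajb1 and -0.15 to 0.00796 on 1422579_at of Hspe1. With 16 added as well, the turned values were -0.14 and -0.11 on 1452318_a_at, -0.216, -0.0266 and -0.181 on 1427127_x_at, 0.24, 0.14 and 0.0191 on 1427126_at, 0.0185, 0.047 and 0.10 on 1416756_at and 0.00792 on 1422579_at. The replicate numbers were not taken to pair the arrays: deviations of same-numbered arrays correlated at 0.00341, 0.0048 and 0.0667 over all probe sets and at -0.00165, -0.0254 and 0.16 over those brighter than the median, and not every array correlated best with its own number. On the chaperones, replicate 2 was the highest array of both lines on 12 of 20 probe sets (10.7% of all).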
